A study of Homo sapiens with 12 samples.

Results

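The controls of this experiment were 6 arrays of Calu-3 cells that had received NC1, an RNA of scrambled sequence, and NC1 biological replicates 4 to 6 are set here against NC1 biological replicates 1 to 3. They are 6 of the 12 arrays of the series and were taken by their titles. The other arrays came from Calu-3 cells given SIN3A siRNA (n = 3) or miR-138 mimic (n = 3), and the series title names CFTR as the subject of the study. Calu-3 is an established human airway epithelial line. All 12 samples share the line, the lipid transfection reagent (lipofectamine RNAiMAX) and the RNA extraction, and none is labelled as left without an RNA. No dose or harvest time was found in the labels. The extraction text mentions primary cultures although every sample is labelled Calu-3, and this was not settled.

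The labels give the 6 NC1 arrays 1 description and no difference between replicates 1 to 3 and 4 to 6. The division follows the replicate numbers and was proposed after the values had been seen, so the tests describe how the arrays differ and are no independent evidence that there are separate kinds of control. The samples are listed with NC1 1 to 3 before the SIN3A siRNA and NC1 4 to 6 before the mimic, which does not state how cultures or arrays were run. A culture, harvest or array run that followed the replicate numbers cannot be told apart from them. The labels call the arrays biological replicates without saying whether they came from separate cultures, so a p-value measures no more than the spread of these arrays, which may be technical.

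Levels were available for 18417 genes as log2 values, 1 probe set per gene. The medians of the NC1 arrays over all 33297 probe sets lay between 5.10 and 5.16. Across genes, which are not independent replicates, arrays correlated with r = 0.979 to 0.987 within NC1 1 to 3, 0.988 to 0.995 within NC1 4 to 6 and 0.967 to 0.982 between them. A gene is called higher or lower in NC1 4 to 6 at an adjusted p under 0.05 (limma, Benjamini-Hochberg over all genes), and every difference below is the log2 level in NC1 4 to 6 minus that in NC1 1 to 3. Of all genes, 973 (5.28%) were called, 675 higher (3.67%) and 298 lower (1.62%). At an unadjusted p under 0.05 there were 3384. After a second quantile normalization the calls were 562 higher and 428 lower, so 56.8% of calls were higher where 69.4% were before. The median difference over all genes was -0.02, and 63 called genes were higher and 47 lower by at least 1 log2 unit. The calls depended on single arrays: 321 genes were called without NC1 4, 330 without NC1 5 and 415 without NC1 2.

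The largest falls were in genes of inflammation and antiviral defence, and 4 of the 10 largest rises were in histone genes. The 10 largest falls were those of SAA1, IL6, IFI27, SAA2, IFITM1, IFI44L, CP, DEFB1, CCL20 and RSAD2, between -3.67 and -1.84. The 10 largest rises were those of H1-3, H2BC10, H4C2, NEK7, SC5D, SHCBP1, DNAJB6, DSEL, H3C11 and MINDY2, between 1.95 and 1.37. All 20 kept their call whichever of the 6 arrays was left out. NEK7 is a kinase of mitosis and of the inflammasome, DNAJB6 a co-chaperone, and SC5D an enzyme of cholesterol synthesis.

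**Figure D1:**
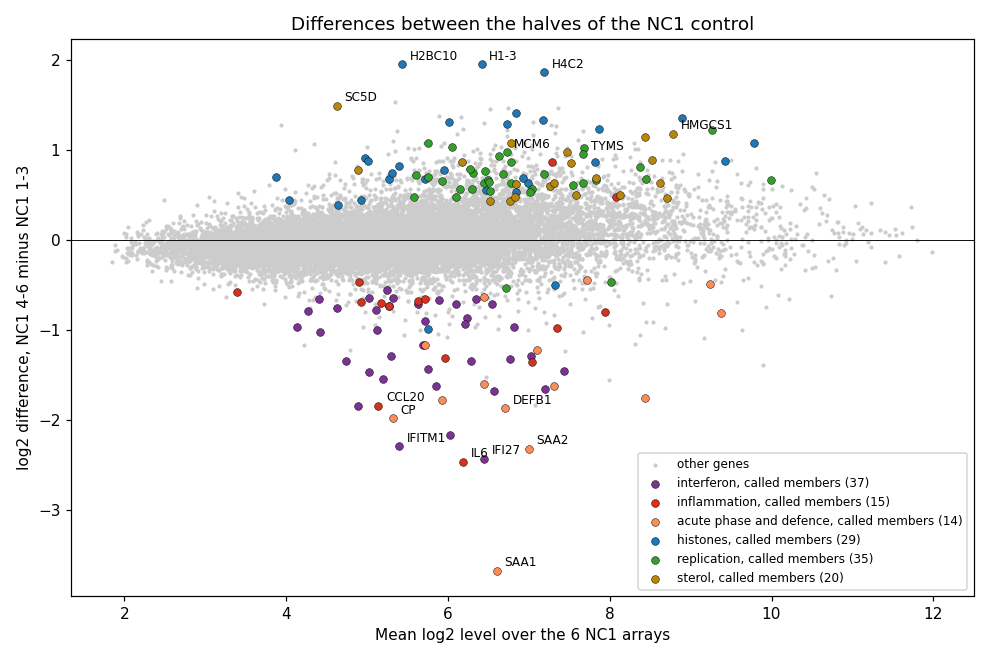
Each point is a gene, with its mean log2 level over the 6 NC1 arrays on the horizontal axis and the log2 difference (NC1 4 to 6 minus NC1 1 to 3) on the vertical axis; called members of 6 gene lists are coloured. SAA1 lies lowest at -3.67, and H1-3 and H2BC10 lie highest at 1.95.

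The cells were first set against markers of cell types. Of 15 measured airway epithelium markers, 14 lay above the median gene level of 5.29, their median level was 7.74, and none was called. NKX2-1 (3.84 in NC1 1 to 3 and 3.79 in NC1 4 to 6) and the club cell protein SCGB1A1 (5.11 and 5.16) were low. The summed linear level of 15 airway secretory markers was 843 to 974 in NC1 1 to 3 and 656 to 673 in NC1 4 to 6, with AGR2 (-0.94) and CEACAM6 (-0.69) called lower. Their median difference was -0.09, and without AGR2 the sums were 505 to 618 and 464 to 516, which overlap. That of 13 basal and squamous markers was 1349 to 1462 and 1751 to 1842, with KRT13 (0.48) and ITGA6 (0.62) called higher and SPRR3 (-0.49) called lower. Their median difference was -0.15, and without ITGA6 the sums were 601 to 639 and 589 to 633, so the higher sum came from that gene. That of 17 leukocyte markers was 1289 to 1434 and 1263 to 1294, none called. PTPRC, which marks all leukocytes, stood at 2.96 and 2.88, but 6 of the 17 lay above the median gene level. Among these were LYZ (8.90 and 8.75), LCP1 (8.29 and 8.45) and CD68 (7.04 and 6.58). VIM (0.66) was the 1 of 16 fibroblast markers called, and none of 14 endothelial or 16 ciliated markers was. Of these calls those of AGR2 and VIM were kept whichever array was left out. That of ITGA6 was lost without NC1 4 or without NC1 5 (adjusted p up to 0.0596). Those of CEACAM6, KRT13 and SPRR3 were lost without either of these and without further arrays too (adjusted p up to 0.0893, 0.126 and 0.225). In these bulk samples fewer cells of a type and less RNA per cell cannot be told apart.

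Inflammatory cytokines and chemokines are secreted by airway epithelium in response to infection or injury. Many of their genes are switched on by NF-kB, a family of transcription factors held in the cytoplasm by inhibitors until a receptor signals. The promoters of IL6, CXCL8 and CXCL2 are shown because these are called genes that carry an NF-kB motif close to their start. Each line holds the 120 bases before the RefSeq gene start (GRCh38.p14), 5′ to 3′ on the gene's strand, with the match to GGANTTTCC in capitals.
IL6, chr7:22727080-22727199, plus strand: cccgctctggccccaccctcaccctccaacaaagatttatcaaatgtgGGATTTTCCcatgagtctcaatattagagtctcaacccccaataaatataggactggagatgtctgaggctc
CXCL8, chr4:73740449-73740568, plus strand: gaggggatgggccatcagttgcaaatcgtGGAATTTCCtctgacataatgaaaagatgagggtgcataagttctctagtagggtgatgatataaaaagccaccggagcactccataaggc
CXCL2, chr4:74099196-74099315, minus strand: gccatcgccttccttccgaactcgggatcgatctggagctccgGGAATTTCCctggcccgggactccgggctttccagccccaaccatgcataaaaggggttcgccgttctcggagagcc
The motif begins 72 bases before the start of IL6, 91 before that of CXCL8 and 77 before that of CXCL2. In the window from 250 bases before to 50 after the start, searched on both strands, it was found in 8 of 15 chemokine promoters (53.3%) and in 2.28% of the 14239 promoters of measured genes. Among the chemokines, 3 of 4 called and 5 of 11 uncalled members held it. A match is a stretch of letters, not a site shown to be bound.

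Of 114 measured inflammation genes, 13 were called lower (11.4%, against 1.62% of all genes) and 2 higher (1.75%, against 3.67%). Their median difference was -0.14. Among 23 cytokine ligands 3 were lower: IL6, IL1A and IL1B. IL6, which drives the acute phase response, had log2 levels of 7.74, 7.51 and 7.03 on NC1 1, 2 and 3 and of 4.93, 4.73 and 5.23 on NC1 4, 5 and 6. The lowest of the first 3 lay well above the highest of the last 3, and the level was 5.51-fold lower (difference -2.46, SE 0.18, limma adjusted p = 8.7e-05). IL1A, an alarm cytokine of epithelium, read 6.69, 6.65 and 6.51 against 5.23, 5.56 and 5.12, without overlap (-1.31, SE 0.13, limma adjusted p = 0.000441). IL1B differed less, by -0.47 (adjusted p = 0.0175), and its call was lost without NC1 2, 4 or 5 (highest adjusted p 0.105). TNF overlapped between the arrays (-0.09, adjusted p = 0.794).

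Of 19 chemokines 5 were called lower (26.3%, against 1.62% of all genes) and none higher, with a median of -0.20. CCL20, which attracts dendritic cells and lymphocytes to mucosa, read 6.23, 5.87 and 6.08 on NC1 1 to 3 and 4.18, 4.40 and 4.08 on NC1 4 to 6. All of the latter lay over 1 log2 unit below all of the former (-1.84, SE 0.13, limma adjusted p = 6.42e-05, 3.58-fold lower). CXCL8, the main neutrophil attractant, read 7.84, 7.73 and 7.58 against 6.32, 6.51 and 6.26, again without overlap (-1.35, SE 0.11, limma adjusted p = 0.000167). CXCL2 (-0.80), CXCL16 (-0.69) and CXCL11 (-0.58) were the other called members. CXCL11 lay at a low level, with means of 3.69 in NC1 1 to 3 and 3.1 in NC1 4 to 6, where the median gene level was 5.29. The call of CXCL16 was lost without any 1 of NC1 1, 2, 4, 5 and 6 (highest adjusted p 0.11). CXCL5, another neutrophil attractant, stood at 0.50 and did not pass (adjusted p = 0.0576).

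Receptors and their signalling genes carry the stimulus to the nucleus. Of 27 receptors TLR3 (-0.73) and IFNGR1 (-0.68) were lower (7.41%, against 1.62% of all genes). IL1RAP, the shared chain of the interleukin-1 receptor, was the 1 called higher (0.86), a share of 3.7% against 3.67% of all genes. Of 21 NF-kB subunits and kinases the adaptor MYD88 (-0.66) was the 1 called (4.76%). Of 24 feedback and target genes SOD2 (-0.98) and ICAM1 (-0.70) were lower (8.33%, against 1.62% of all genes). The protease MMP7 (0.48) was the 1 called higher (4.17%, against 3.67%). The NF-kB inhibitors NFKBIA (-0.24, adjusted p = 0.191) and TNFAIP3 (-0.31, adjusted p = 0.12), which are themselves NF-kB targets, were not called. The calls of ICAM1 and MMP7 were lost without NC1 2, 3, 4 or 5 (highest adjusted p 0.182 and 0.16), that of IFNGR1 without NC1 1, 2, 4 or 6 (0.0982) and that of IL1RAP without NC1 4 or 5 (0.0673).

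Acute phase proteins are released in large amounts during inflammation, in airway as well as liver, and complement proteins tag microbes. Of 26 genes in this group 8 were called lower (30.8%, against 1.62% of all genes) and none higher (median -0.31). Of 23 airway defence genes 6 were lower (26.1%) and none higher (median -0.13). Of the acute phase and complement genes 5 were called without NC1 2, 4 or 5. SAA1, serum amyloid A, read 8.40, 8.39 and 8.52 on NC1 1 to 3 and 5.13, 4.68 and 4.50 on NC1 4 to 6. This was the largest difference among called genes with no overlap, 12.7-fold (-3.67, SE 0.15, limma adjusted p = 4.65e-06). SAA2 (-2.32) is nearly identical in sequence to SAA1, so its probe set could share signal with it. CP, the copper carrier ceruloplasmin, read 6.53, 6.49 and 5.92 against 4.31, 4.27 and 4.42 (-1.98). C3, the central complement protein, read 7.16, 6.47 and 6.83 against 5.05, 5.12 and 4.95 (-1.78), and complement factor B (CFB) differed by -1.75. None of these overlapped between the arrays. SERPING1 (-0.63), LCN2 (-0.49) and CD55 (-0.44) were lower by less. The calls of SERPING1 and LCN2 were lost without NC1 2, 4 or 5, that of LCN2 also without NC1 3 or 6, and that of CD55 without any 1 array but NC1 3 (highest adjusted p 0.0914, 0.107 and 0.113).

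The defence proteins called were DEFB1, SLPI, PI3, S100P, PIGR and TCN1, each without exception whichever array was left out. DEFB1, an antimicrobial peptide of epithelial surfaces, read 7.61, 7.55 and 7.76 against 5.87, 5.79 and 5.66 (-1.87, SE 0.10, limma adjusted p = 2.12e-05). SLPI (-1.62) and PI3 (-1.60) encode inhibitors of neutrophil proteases, and PIGR (-1.17) the receptor that carries antibodies across epithelium. S100P stood at -1.22 and the cobalamin binder TCN1 at -0.81. Several of these genes are secretory cell products. Of the secretory markers given above, 2 of 15 were called lower, where 1.62% of all genes were, and the part of these cells in the result was not tested. No promoter of the 35 acute phase and defence genes with a RefSeq promoter held GGANTTTCC in the window, which says only that these letters are not there.

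Interferon effectors are the antiviral genes that cells switch on after interferon binds its receptor, and many carry an interferon-stimulated response element in their promoter. The promoters of IFITM1, IFI44L and IFITM3 are printed because 34 of the 49 members of this group were called lower, with matches to the element (GAAA, any 2 bases, GAAA) in capitals and build, strand and length as before.
IFITM1, chr11:313920-314039, plus strand: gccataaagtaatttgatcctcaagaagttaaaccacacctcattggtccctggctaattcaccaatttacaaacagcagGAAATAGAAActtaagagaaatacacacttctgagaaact
IFI44L, chr1:78620328-78620447, plus strand: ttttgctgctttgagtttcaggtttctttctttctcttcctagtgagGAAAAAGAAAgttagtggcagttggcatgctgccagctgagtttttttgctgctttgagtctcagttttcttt
IFITM3, chr11:320861-320980, minus strand: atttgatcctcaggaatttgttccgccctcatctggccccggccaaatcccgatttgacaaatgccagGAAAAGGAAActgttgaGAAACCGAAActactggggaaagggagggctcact
The match begins 40 bases before the start of IFITM1, 73 before that of IFI44L, and 52 and 35 before that of IFITM3. It was found in 27 of 37 effector promoters (73.0%) and in 4.12% of all promoters. Called members held it in 19 of 27 cases and uncalled members in 8 of 10, so the letters did not separate them.

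Of 49 measured interferon effectors, 34 were called lower (69.4%, against 1.62% of all genes) and none higher, with a median difference of -0.78. The arrays of NC1 4 to 6 all lay below those of NC1 1 to 3 for 43 of the 49, against 10.4% of all genes. IFI27, a mitochondrial interferon-induced protein, read 7.53, 7.62 and 7.84 on NC1 1 to 3 and 5.60, 4.97 and 5.14 on NC1 4 to 6 (-2.43, SE 0.16, limma adjusted p = 5.73e-05). IFITM1, which blocks viral entry, read 6.27, 6.68 and 6.66 against 4.28, 4.15 and 4.33 (-2.29, SE 0.13, limma adjusted p = 2.12e-05). IFI44L read 7.38, 7.13 and 6.80 against 4.66, 5.02 and 5.15 (-2.16, SE 0.16, limma adjusted p = 0.0001). In all 3 genes the gap between the sets of arrays was wider than the spread within either. RSAD2 (-1.84), OAS1 (-1.66), IFIT1 (-1.62), MX1 (-1.43) and ISG15 (-0.90) were lower by less. Members of the IFITM family are near copies of each other, so probe sets could share signal. The members with a difference above 0 were APOL1 (0.28), PLSCR1 (0.10) and APOL2 (0.06), none of them called. The calls of 25 of the 34 were kept whichever array was left out, and those of IFIT3, IFIT5, IFITM2, HERC6, XAF1, EPSTI1, RTP4, GBP3 and APOL6 were lost, each without NC1 4 or NC1 5 and most without further arrays too, with adjusted p up to 0.133.

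The genes that start an interferon response sense viral RNA and make interferon. Of 24 sensor and signalling genes 3 were lower (12.5%, against 1.62% of all genes), with a median of -0.12. They were TLR3 (-0.73), which is also counted among the receptors above, and the double-stranded RNA sensors IFIH1 (-1.29) and RIGI (-0.71). IFIH1 read 7.93, 7.56 and 7.52 against 6.64, 6.74 and 5.77, without overlap, and its call was lost without NC1 2 (adjusted p = 0.0575). That of RIGI was lost without NC1 2, 4, 5 or 6 (up to 0.0966). IFNB1, the gene of interferon beta, read 3.08, 3.33 and 3.07 against 2.90, 2.59 and 3.26, which overlap at a low level (-0.25, adjusted p = 0.464). IFNAR1, a receptor chain, stood at 0.73 and IRF7, which amplifies the response, at -0.01, and neither was called.

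Antigen presentation on class I molecules uses B2M and an inducible form of the proteasome. All 16 measured genes had a difference below 0, where 9938 of all 18417 genes did, and their median was -0.26. Of the 16, 4 were called lower, where 1.62% of all genes were, and none was called higher. PSMB9, an immunoproteasome subunit, read 8.80, 8.65 and 8.86 against 7.30, 7.17 and 7.17 (-1.56, SE 0.10, limma adjusted p = 5.73e-05). B2M (-0.68), HLA-DMB (-0.43), which loads class II molecules, and PSME1 (-0.40) were the others. The calls of HLA-DMB and PSME1 were lost whichever array was left out (up to 0.228 and 0.148), and that of B2M was lost without NC1 2 (0.0563), so 1 or 2 members were called after any omission. The response element was found in 10 of 14 promoters (71.4%, against 4.12% of all promoters).

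**Figure D2:**
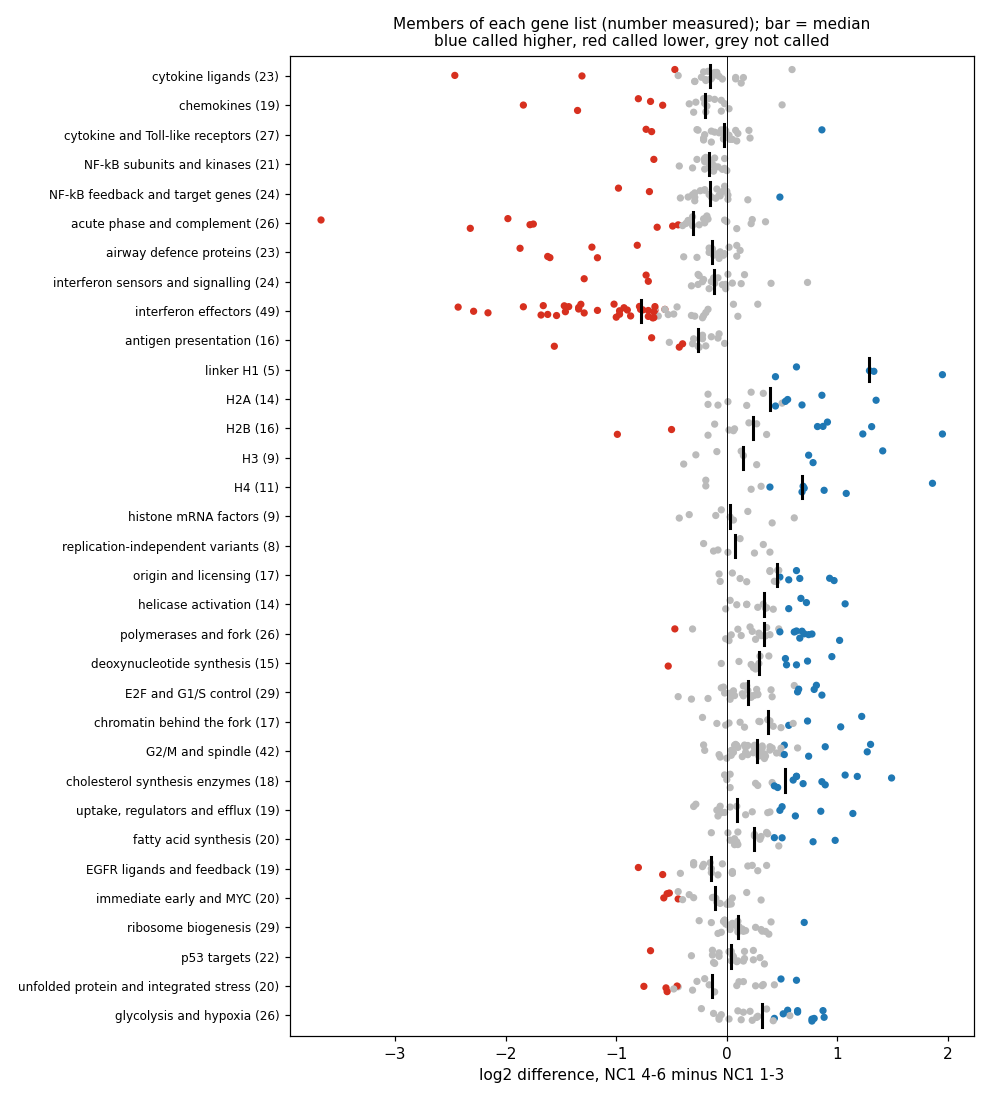
Each point is a measured member of a gene group, placed by its log2 difference (NC1 4 to 6 minus NC1 1 to 3), and the bars are group medians, from -0.78 for interferon effectors to 1.29 for linker H1 histones. Blue points were called higher, red points lower and grey points were not called.

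Replication-dependent histone genes are transcribed in S phase, when new DNA has to be packed, and their messages end in a stem-loop in place of a poly(A) tail. H1 is the linker histone, and H2A, H2B, H3 and H4 form the core of the nucleosome. The promoters of H2BC10, H2BC14 and H1-3 are shown because H2B promoters share an octamer, in capitals for H2BC10 and H2BC14, and H1-3 is the histone gene with the largest rise and carries a CCAAT box, in capitals.
H2BC10, chr6:26272811-26272930, plus strand: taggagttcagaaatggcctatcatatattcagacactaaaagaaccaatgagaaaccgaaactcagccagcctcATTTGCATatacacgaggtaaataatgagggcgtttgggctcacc
H2BC14, chr6:27814902-27815021, plus strand: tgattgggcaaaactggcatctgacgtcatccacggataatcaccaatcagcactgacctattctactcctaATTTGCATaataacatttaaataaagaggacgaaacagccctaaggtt
H1-3, chr6:26234988-26235107, minus strand: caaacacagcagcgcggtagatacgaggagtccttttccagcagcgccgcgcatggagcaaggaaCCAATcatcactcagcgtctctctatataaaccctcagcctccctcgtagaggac
The octamer ATTTGCAT begins 45 and 48 bases before the starts of H2BC10 and H2BC14, and CCAAT 55 bases before that of H1-3. The octamer was found in 13 of 16 H2B (81.2%) and 10 of 13 H2A promoters (76.9%) and in 2.12% of all promoters. Over the 5 classes CCAAT was in 44 of 50 promoters (88.0%, against 42.2% of all) and TATAAA in 33 of 50 (66.0%, against 11.9%). Histone genes are near copies of each other, so a probe set can take signal from several, and single members are uncertain.

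Of 55 measured replication-dependent histone genes 27 were called higher (49.1%, against 3.67% of all genes) and 2 lower (3.64%, against 1.62%), with a median of 0.39. The count of higher calls was 17 without NC1 2 or without NC1 4. All 5 linker H1 genes were higher, and 3 were without NC1 2, 4 or 5. H1-3 read 5.52, 5.32 and 5.48 on NC1 1 to 3 and 7.58, 7.39 and 7.20 on NC1 4 to 6, a 3.86-fold difference without overlap (1.95, SE 0.12, limma adjusted p = 3.94e-05). H1-4 (1.33), H1-1 (1.29), H1-2 (0.63) and H1-5 (0.44) followed. The calls of H1-2 (lost without NC1 2, 4 or 5) and H1-5 (lost without any 1 array but NC1 3) reached adjusted p of 0.0746 and 0.179.

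Among the core histones 6 of 14 H2A, 6 of 16 H2B, 3 of 9 H3 and 7 of 11 H4 genes were higher, with H2A at 3 without NC1 2 or 5 and at 2 without NC1 4. H2BC10 read 4.67, 4.44 and 4.27 against 7.08, 6.07 and 6.07. NC1 4 stood 1 log2 unit above NC1 5 and 6, which were still above all of NC1 1 to 3 (1.95, SE 0.24, limma adjusted p = 0.00188). H4C2 read 6.55, 6.44 and 5.79 against 8.16, 8.22 and 8.0 (1.86, SE 0.18, limma adjusted p = 0.000441). H3C11 (1.41), H2AC6 (1.35), H2BC14 (1.31), H2BC9 (1.23) and H4C3 (1.08) were also higher. The members called lower were H2BC12 (-0.99) and H2BC5 (-0.50), whose calls were lost in 5 of the 6 omissions each, H2BC12 keeping its call without NC1 4 and H2BC5 without NC1 3 (up to 0.177 and 0.139). None of 9 genes for histone message processing was called, among them SLBP, which binds the stem-loop (0.03), NPAT, the activator of histone genes (0.19), and ERI1 (0.61, adjusted p = 0.0506). None of 8 replication-independent variants was called either.

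Replication starts where ORC and CDC6 load the MCM helicase, which later factors activate, and E2F proteins switch on most of these genes before S phase. The promoters of MCM6 and PCNA are printed, with the E2F matches in capitals, because MCM6 has the largest difference among the licensing genes and PCNA is the clamp that holds polymerases on DNA.
MCM6, chr2:135876444-135876563, minus strand: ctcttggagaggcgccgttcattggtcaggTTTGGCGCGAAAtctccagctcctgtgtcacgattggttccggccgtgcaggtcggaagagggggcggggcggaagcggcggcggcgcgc
PCNA, chr20:5126623-5126742, minus strand: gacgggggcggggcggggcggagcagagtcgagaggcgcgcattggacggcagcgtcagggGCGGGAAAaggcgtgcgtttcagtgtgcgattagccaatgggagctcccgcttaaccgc
The letters searched were TTTGGCGC, TTTCGCGC and TTTCCCGC. MCM6 carries overlapping matches on opposite strands, at 90 and 86 bases before the start, and PCNA 1 match at 59 bases. They were found in 37 of 101 replication promoters (36.6%) and in 4.61% of all, in 11 of 32 called and 26 of 69 uncalled members.

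Of 118 measured replication genes 33 were called higher (28.0%, against 3.67% of all genes) and 2 lower (1.69%, against 1.62%), with a median of 0.30. The higher count was 17 without NC1 2, 15 without NC1 4 and 15 without NC1 5. MCM6 read 6.48, 6.19 and 6.06 on NC1 1 to 3 and 7.37, 7.35 and 6.91 on NC1 4 to 6, without overlap (0.97, SE 0.15, limma adjusted p = 0.00645). MCM3 (0.93), CDC6 (0.66) and MCM7 (0.63) were also among the 6 of 17 licensing genes called higher, and MCM2 stood at 0.12, not called. Of 14 helicase activation genes 4 were higher, with GINS4, a subunit of the active helicase, at 1.07 and the kinase CDC7 at 0.72. Of 26 polymerase and fork genes 9 were higher and the topoisomerase TOP1 was lower (-0.47). POLD3, a subunit of polymerase delta, read 7.38, 7.09 and 7.04 against 8.26, 8.24 and 8.08 (1.02, SE 0.12, limma adjusted p = 0.00124). PCNA read 6.23, 5.88 and 5.71 against 6.84, 6.61 and 6.58 (0.74, SE 0.14, limma adjusted p = 0.0149). POLA1 (0.77) and RFC4 (0.68) were higher as well. The count of polymerase and fork genes was 5 without NC1 2 and 4 without NC1 4 or 5, and that of helicase activation genes 1 without NC1 2, 4 or 5 and 2 without NC1 3 or 6. The calls of CDC7 (lost without NC1 2, 4, 5 or 6), PCNA (without NC1 2, 4 or 5) and TOP1 (without any 1 array but NC1 3) reached adjusted p of 0.103, 0.0877 and 0.198.

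Deoxynucleotide synthesis supplies the building blocks of DNA, and 5 of its 15 genes were higher (33.3%, against 3.67% of all genes). TYMS, which makes thymidylate, read 7.40, 7.23 and 6.95 against 8.28, 8.19 and 7.96, without overlap (0.95, SE 0.14, limma adjusted p = 0.00411). MTHFD1, a folate enzyme, stood at 0.73. SAMHD1, which degrades deoxynucleotides and is interferon-induced, was lower (-0.53). Of 29 E2F and G1/S control genes 5 were higher: RB1 (0.86), CDK4 (0.81), SKP2 (0.79), CDK6 (0.65) and RBL1 (0.64). These include kinases that open the G1 gate and, in RB1 and RBL1, proteins that hold it shut. Of 17 genes for chromatin behind the fork 4 were higher, among them the heterochromatin protein CBX5 (1.22) and the helicase HELLS (1.03). Without NC1 4 or without NC1 5, 2 genes of each of these 3 groups were called higher, and without NC1 2 the counts were 2, 3 and 2. Calls were lost for RB1 without NC1 4 or 5 (adjusted p up to 0.0585), for RBL1 without NC1 2, 4 or 5 (0.0882), for SAMHD1 without NC1 2, 4, 5 or 6 (0.11) and for CDK6 without any 1 array but NC1 1 (0.14).

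Mitosis genes act after replication, in G2 and at the spindle. Of 42 genes in this group 6 were higher (14.3%, against 3.67% of all genes) and none lower (median 0.27). The count was 2 without NC1 2, without NC1 4 or without NC1 5 and 3 without NC1 3. NUF2, a kinetochore protein, read 6.20, 5.84 and 5.37 against 7.26, 7.14 and 6.89 (1.30, SE 0.19, limma adjusted p = 0.00466). HMMR, a spindle protein, differed by 1.27, ANLN of the cleavage ring by 0.89 and the checkpoint kinase BUB1B by 0.74. The calls of ANLN (without NC1 2, 4 or 5) and BUB1B (without NC1 2, 3, 4 or 5) were lost at adjusted p up to 0.0882 and 0.125. The proliferation marker MKI67 read 7.45, 7.32 and 7.29 against 7.53, 7.56 and 7.26, which overlap (0.09, adjusted p = 0.73).

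Cholesterol is made from acetyl-CoA through mevalonate, by enzymes whose genes are switched on together by SREBF2 when membrane sterol falls. The promoter of HMGCS1, which makes the mevalonate precursor, is shown with its CCAAT box (read on the opposite strand) in capitals.
HMGCS1, chr5:43313413-43313532, minus strand: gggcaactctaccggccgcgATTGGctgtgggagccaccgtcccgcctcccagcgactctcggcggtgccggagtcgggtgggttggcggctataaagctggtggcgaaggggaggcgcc
The match lies 100 bases before the start. CCAAT was found in 14 of 16 promoters of cholesterol enzymes (87.5%, against 42.2% of all promoters). The sterol element CACCCCAC was found in none of the 16 and in 3.83% of all promoters, which says only that these exact letters are not in this window.

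Of 18 cholesterol synthesis enzymes 11 were called higher (61.1%, against 3.67% of all genes) and none lower, with a median of 0.53. The count was 7 without NC1 2, 3 or 6, 6 without NC1 5 and 5 without NC1 4. IDI1, CYP51A1, NSDHL, EBP, DHCR7 and ERG28 were those lost without NC1 4 (adjusted p up to 0.215 over all omissions). SC5D, which acts late in the pathway, read 4.00, 3.85 and 3.80 on NC1 1 to 3 and 5.57, 5.46 and 5.08 on NC1 4 to 6. All of NC1 4 to 6 lay over 1 log2 unit higher, 2.8-fold in the means (1.49, SE 0.13, limma adjusted p = 0.000346). HMGCS1 read 8.32, 8.33 and 7.91 against 9.45, 9.47 and 9.18 (1.18, SE 0.14, limma adjusted p = 0.00135). MSMO1 (1.07), SQLE (0.89), DHCR7 (0.86) and ACAT2 (0.69) were higher too. Of 19 genes of uptake, regulation and efflux 5 were higher: INSIG2 (1.14), SOAT1 (0.85), STARD4 (0.62), TMEM97 (0.50) and VLDLR (0.48). SREBF2 itself stood at -0.06 and INSIG1, a target and brake of the pathway, at 0.37 (adjusted p = 0.106), and neither was called. Of 20 fatty acid synthesis genes 4 were higher: ACACA, which makes malonyl-CoA (0.98), ELOVL6 (0.78), SCD (0.50) and FADS1 (0.43). FASN, the synthase itself, overlapped (0.03). Over the 57 sterol and fatty acid genes 20 were higher, and the count was 10 without NC1 2, 8 without NC1 4 and 9 without NC1 5. All 5 regulators but INSIG2, and SCD and FADS1, lost their call without NC1 2, 4 or 5 (adjusted p up to 0.139).

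**Figure D3:**
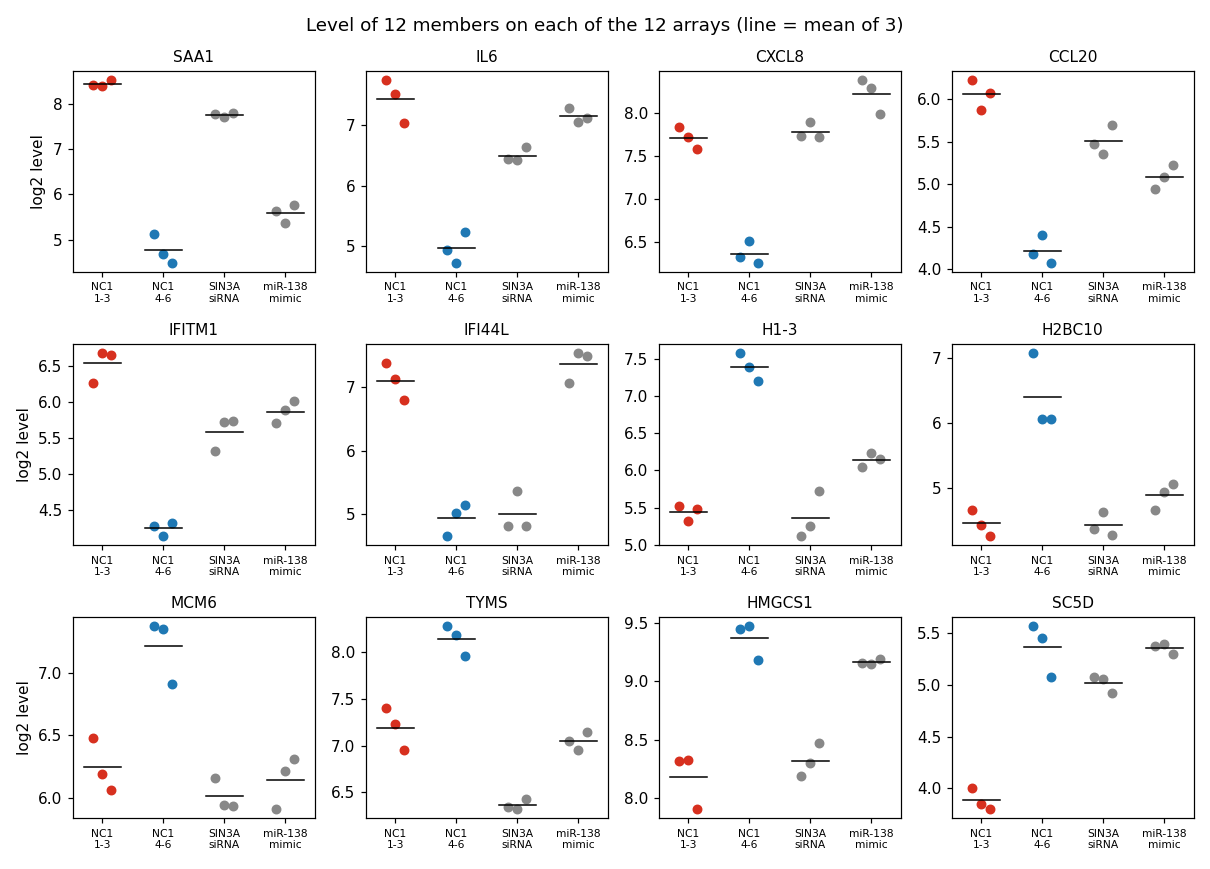
Each point is 1 array, with the log2 level on the vertical axis (scales differ between panels) for 12 genes in NC1 1 to 3, NC1 4 to 6, SIN3A siRNA and miR-138 mimic arrays, and lines are means of 3. SAA1 falls from 8.44 to 4.77 and HMGCS1 rises from 8.19 to 9.37 between the NC1 arrays.

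Growth factor and metabolic genes were read beside these. Of 19 EGFR ligand and feedback genes HBEGF (-0.80), an EGFR ligand, and DUSP1 (-0.58), a phosphatase, were lower (10.5%, against 1.62% of all genes). DUSP1 lost its call without NC1 2 or 4 (adjusted p up to 0.086). Of 20 immediate early and MYC genes 4 were lower, where 1.62% of all genes were, and none was higher. They were JUN (-0.52), MYC (-0.44), MXD1 (-0.57) and CCN1 (-0.54), and none of these 4 kept its call in every omission (adjusted p up to 0.103, 0.124, 0.171 and 0.107). Without NC1 2 all 4 were lost. MYC read 6.73, 6.62 and 6.73 against 6.23, 6.26 and 6.28. Of 29 ribosome biogenesis genes NOP58 (0.70) was the 1 called higher (3.45%, against 3.67% of all genes), and none was lower. Its call was lost without NC1 2, 4 or 5 (adjusted p up to 0.0868).

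Of 26 glycolysis and hypoxia genes 10 were called higher (38.5%, against 3.67% of all genes) and none lower (median 0.32). The count was 5 without NC1 4 or without NC1 5. SLC2A1, the glucose carrier, read 5.97, 6.18 and 6.19 against 6.88, 7.04 and 7.06 (0.88, SE 0.11, limma adjusted p = 0.00169). ENO1 (0.87), PKM (0.77), HK2 (0.77), TPI1 (0.64) and LDHA (0.43) are glycolytic enzymes, and LDHA lost its call without NC1 2, 3, 4 or 5 (up to 0.198). Of 22 p53 targets GADD45A (-0.69) was the 1 called (4.55% lower, against 1.62% of all genes), and CDKN1A stood at -0.32, not called. Of 20 unfolded protein and integrated stress genes 4 were lower, where 1.62% of all genes were, and 2 were higher, where 3.67% of all genes were. DDIT3 (-0.75), ASNS (-0.55), PPP1R15A (-0.54) and XBP1 (-0.45) were lower and the chaperone genes PDIA4 (0.63) and MANF (0.49) were higher. All of these but DDIT3 and PDIA4 lost their call without NC1 4 or without NC1 5 (up to 0.129).

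**Figure D4:**
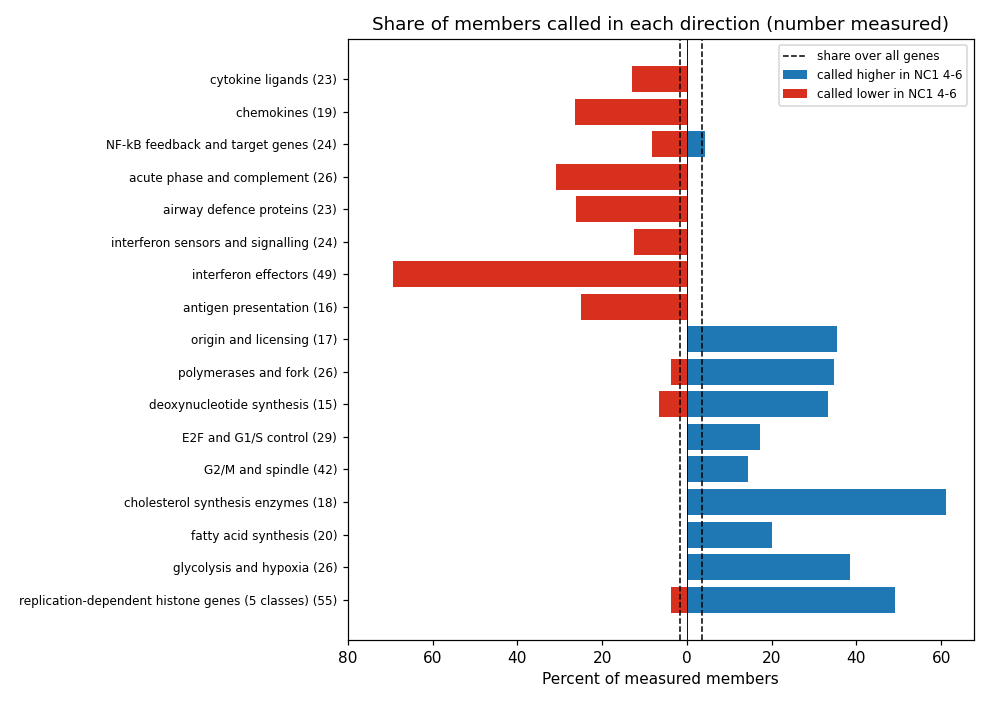
Bars give the percent of measured members called higher (right, blue) or lower (left, red) in NC1 4 to 6 for 17 gene groups, with the number measured in brackets and the shares over all genes, 3.67% and 1.62%, as dashed lines. The longest bars are 69.4% lower for interferon effectors and 61.1% higher for cholesterol synthesis enzymes, of which 5 in place of 11 were called without NC1 4.

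To see how the groups of genes varied from array to array, the median deviation of each group from the mean over the NC1 arrays was taken on every array. The members of a group share the array, so these values describe arrays and are given without a test. Interferon effectors stood at 0.53, 0.48 and 0.32 on NC1 1, 2 and 3 and at -0.41, -0.48 and -0.43 on NC1 4, 5 and 6. Replication-dependent histones stood at -0.23, -0.31 and -0.18 and at 0.17, 0.16 and 0.23. Cholesterol enzymes stood at -0.16, -0.32 and -0.35 and at 0.29, 0.31 and 0.18, and licensing genes at -0.04, -0.28 and -0.33 and at 0.26, 0.29 and 0.13. Within NC1 1 to 3, licensing, mitotic and cholesterol genes were all highest on NC1 1 and lowest on NC1 3. Within NC1 4 to 6 the same groups were all lowest on NC1 6. Histones over the 5 classes did not follow that order and were highest on NC1 6, but the classes differed. On NC1 4, 5 and 6 linker H1 genes stood at 0.69, 0.68 and 0.43 and H2B genes at 0.12, 0.10 and 0.06. Both were thus lowest on NC1 6. H3 genes (-0.02, -0.04 and 0.26) and H4 genes (0.33, 0.15 and 0.34) were highest there. H2A genes stood at 0.21, 0.15 and 0.18. Mitotic genes stood at 0.04, -0.10 and -0.32 and at 0.25, 0.21 and -0.09, so NC1 6 lay below NC1 1.

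The treated arrays, which the division of the controls did not use and which carry other treatments, did not hold the same combination. On the miR-138 mimic arrays interferon effectors stood at 0.41 to 0.53, near NC1 1 to 3, while acute phase and complement genes stood at -0.26 to -0.10, near NC1 4 to 6. Cholesterol enzymes stood there at -0.01 to 0.07, between the controls. Histones stood there at -0.23 to -0.15 over the 5 classes, but linker H1 genes at -0.23 to -0.17 lay between -0.58 to -0.51 on NC1 1 to 3 and 0.43 to 0.69 on NC1 4 to 6. H1-3 averaged 6.15 ± 0.11 (SD, n = 3) on mimic arrays, between 5.44 and 7.39, and H2AC6 averaged 9.07 ± 0.12 (SD, n = 3), between 8.22 and 9.57. On the SIN3A siRNA arrays effectors stood at -0.21 to -0.09, between the controls, while histones at -0.34 to -0.32 and licensing genes at -0.35 to -0.18 stood near NC1 1 to 3. Single genes showed it too. SAA1 averaged 7.75 ± 0.04 (SD, n = 3) on siRNA and 5.59 ± 0.20 (SD, n = 3) on mimic arrays, IFI44L 5.00 ± 0.32 and 7.36 ± 0.25, and CP 4.27 ± 0.15 and 4.09 ± 0.17. DEFB1 averaged 8.04 ± 0.16 and 5.87 ± 0.08. SC5D, at 5.02 ± 0.09 and 5.36 ± 0.05, was above all NC1 1 to 3 arrays in both. IL6 averaged 6.50 ± 0.12 and 7.15 ± 0.11, both above all of NC1 4 to 6.

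**Figure D5:**
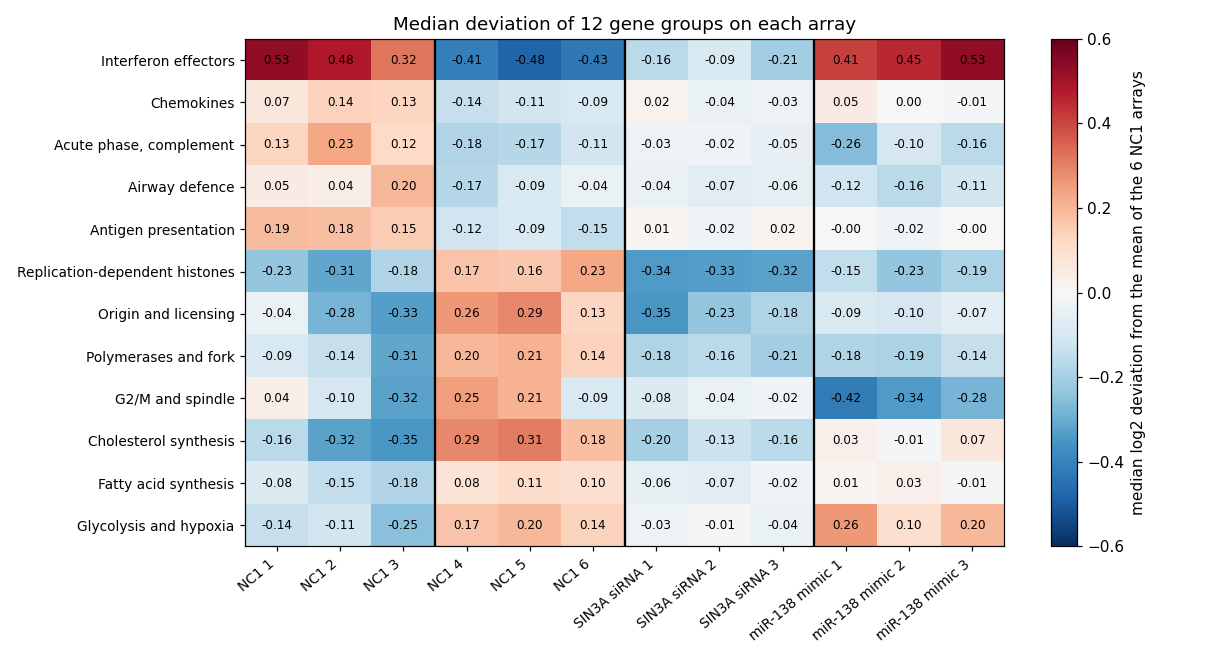
Rows are 12 gene groups and columns the 12 arrays, and the number and colour in each cell are the median log2 deviation of the group from the mean of the 6 NC1 arrays. Interferon effectors run from 0.53 on NC1 1 to -0.48 on NC1 5 and return to 0.53 on mimic array 3.

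SIN3A, the target of the siRNA, read 6.79, 6.71 and 6.36 on NC1 1 to 3 and 7.34, 7.16 and 7.11 on NC1 4 to 6. The controls thus differed at the gene the siRNA targets (0.58, limma adjusted p = 0.03; exact two-sided permutation p = 0.1, the smallest that 20 splits of 3 against 3 allow). The call was lost without any 1 array but NC1 1 (up to 0.155). CFTR, the channel named in the series title, stood at 0.35 and was not called (adjusted p = 0.261).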

How the data were processed

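RNA of 12 Calu-3 samples was measured on whole-transcript arrays from 5 µg of total RNA, per the labels' protocols. The authors deposited log2 values, 1 per probe set and array, between 1.43 and 13.2. The submitters' processing notes name RMA and Partek 6.3, and the step each served was not stated there. The values were used as deposited. Of 33297 probe sets 19460 carried 1 gene symbol in the platform annotation, 1754 several and 12083 none. Each gene took its single-symbol probe set with the highest mean over all 12 arrays.

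The 6 NC1 arrays, 3 against 3 by replicate number in the titles, were fitted with limma 3.58.1 under R 4.3.3 (4 residual degrees of freedom before moderation), and SEs are those of the fit. Precision is limited by the number of arrays: the median SE of a difference was 0.11. The members and the gene lists (734 genes, 673 measured) were chosen with earlier results of these data known, so no list has a test. The genes named were the 10 largest rises and falls among called genes with no overlap (unnamed loci, small RNA genes and pseudogenes left out), up to 4 members of a role with the smallest adjusted p and every called member where 5 or fewer were called, and a fixed set; others of the lists are named beside them. Promoters are from RefSeq (GRCh38.p14), found for 561 of the 673. Alternatives were all 12 arrays, mean probe sets, a second normalization, array medians subtracted, dim genes left out, another variance moderation and single arrays left out.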

Additional observations from a re-analysis of the deposited data

How the results depend on the processing

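No paired analysis was possible because NC1 1 to 3 and NC1 4 to 6 share no replicate number. With all 12 arrays in the fit, 1264 genes were called higher and 586 lower, with 54 replication and 10 mitotic genes higher. With genes under the median level left out, 8 inflammation and 24 interferon genes were lower. Members under that level were not in that fit, so these counts are over fewer genes. With array medians subtracted, 2 antigen presentation genes were lower. Of 124 called genes named by rule, all kept their call with all 12 arrays and with mean probe sets, 117 after the second normalization, 115 with medians subtracted, 121 with the other moderation and all 111 that passed the filter on dim genes. Without single arrays, 188 to 748 genes were higher and 124 to 278 lower. Lower calls were 9 to 12 for inflammation, 11 to 14 for acute phase and defence, 28 to 39 for interferon and 1 to 2 for antigen presentation. Higher calls were 17 to 22 for histones, 15 to 40 for replication, 2 to 7 for mitosis, 8 to 21 for sterol and 5 to 10 for glycolysis. Among the genes named by rule, signs turned for 3, none of them called: SLBP was -0.05 after the second normalization and, without single arrays, ran from -0.01 (without NC1 2 or NC1 3) to 0.09, FASN from -0.03 (without NC1 2) to 0.11, with -0.01 without NC1 5, and TNF from -0.23 to 0.00, just above 0 (without NC1 3). The cause of these moves was not tested. Of 183 called list members 95 were called whichever array was left out, and without NC1 4 the largest number, 81, was lost.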
